A study of Mus musculus with 4 samples.

Results

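In large peritoneal macrophages (LPMs), which reside in the mouse peritoneal cavity, complement genes were compared between wild-type and RXRα-deficient cells. Members were the 10 genes C1qa, C1qb, C1qc, C3, C4b, Cfb, Cfp, C3ar1, C5ar1 and Vsig4, chosen by name as complement components and receptors, and all 10 were found among the 18364 genes measured. The groups were WT and Rxra-KO, with 2 libraries each from C57BL/6 mice aged 8 weeks. Per the study's methods, Rxra-KO mice carry floxed Rxra alleles that are deleted by a Cre placed under the LysM promoter, which is active in myeloid cells in general, and the WT controls are littermates with floxed Rxra and no Cre. LPMs were sorted as F4/80+ MHCII-negative CD102+ cells, and their RNA was sequenced in bulk with a low-input full-length cDNA kit. Nothing in the labels says whether 1 library came from 1 mouse or from several, so the spread between these libraries may be technical in part. In the main test, most of the spread behind a p-value was borrowed from other genes, as given in the last section.

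Complement is a cascade of plasma and tissue proteins that tags particles for uptake and releases inflammatory peptides. In the classical pathway C1q, built from A, B and C chains encoded by C1qa, C1qb and C1qc, binds antibody or dying cells, and C4 is cleaved next. The alternative pathway runs on C3 and factor B (Cfb) and is stabilised by properdin (Cfp). The peptides C3a and C5a act through the receptors C3ar1 and C5ar1, whereas Vsig4 (CRIg) is a macrophage receptor for C3b-coated particles.

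Libraries held 652542 and 947372 reads for WT and 629030 and 1047021 reads for Rxra-KO. Values are normalised read counts, in which 1 read is worth between 0.993 and 1.51. The targeted gene was not lower in the Rxra-KO libraries. For Rxra, WT libraries had 20 and 28 reads, and those labelled Rxra-KO had 33 and 77 (log2 fold change 0.99, SE 0.36, limma adjusted p = 0.183), and since the table gives whole genes the deleted exons were not checked. Directions below are therefore those of the labels. Lyz2, the locus that drives the Cre, fell by 1.03 on the log2 scale (limma adjusted p = 0.00163). LPM markers were found in all 4 libraries, with summed values of the 12 LPM markers of 38846 and 41049 in WT against 20573 and 23001 in Rxra-KO. Most of each sum was Prg4 (28429 and 29683 in WT, 15129 and 16567 in Rxra-KO, called lower). Of the 12 LPM markers 9 were called lower. Among them Gata6, the defining factor of LPMs, was at 53.7 and 71.1 in WT against 5.27 and 24.3 in Rxra-KO, where it had 3 and 24 reads. Timd4 (log2 fold change -0.80), Csf1r (0.36) and Cd14 (0.59) were not called. Of 9 markers of small peritoneal or monocyte-derived macrophages 4 were called higher (Ccr2, Irf4, Retnla and Mrc1), and the list summed to 10349 and 8956 in WT against 8980 and 10435 in Rxra-KO. Most of that sum was Fn1 (9950 and 8776 in WT, 5898 and 5939 in Rxra-KO, not called), and the other 8 summed to 399.7 and 180.1 in WT against 3082 and 4496 in Rxra-KO. These 8 did not all rise. Fcgr1 was at 37.1 and 57.0 in WT against 24.8 and 18.4 in Rxra-KO (log2 fold change -1.07). Ly6c2 (-0.78) and Cx3cr1 (-0.30) also had negative fold changes and Plac8 (0.20) a positive one, and none of them was called. Dendritic cell markers summed to 56.0 and 64.0 in WT against 105 and 132 in Rxra-KO, and 1 of 6, Cd209a, was called higher. The other 5 summed to 34.1 and 49.4 in WT against 39.9 and 52.1 in Rxra-KO. The 4 T cell markers summed to 43.9 and 41.2 in WT against 60.2 and 34.8 in Rxra-KO. Of these Cd2 was called higher, at 0 reads in both WT libraries and 11 and 6 reads in Rxra-KO, whereas Lck had 7 and 11 reads in WT against 2 and 0 and was not called (limma adjusted p = 0.132). Summed B cell, mast cell, neutrophil, mesothelial, fibroblast and erythroid markers were at most 109 in every library, and none was called. Some listed markers were absent from the genes measured, so low sums are a weak check. Only 2 of 6 neutrophil markers were present, without S100a8, S100a9, Ly6g and Camp. Only 2 of 6 erythroid markers were present, without the globin genes. The part of the marker shifts above in the complement values was not tested, and in bulk RNA fewer cells of a type and less RNA per cell cannot be told apart.

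Of the 10 complement genes C4b and Cfb were called lower in Rxra-KO LPMs and C5ar1 higher, and the other 7 did not pass the test. None of the 3 calls held under every alternative setting, as given gene by gene below. Calls required an adjusted p under 0.05 and a log2 fold change of 0.6 or more in size, from limma with a mean-variance trend over all genes, on the log2(value + 1) scale. This gave 3 of 10 members, against 2.29% of all genes, of which 1.32% were called higher and 0.969% lower. The share over all genes includes 9514 of 18364 with a mean under 10 reads, against 0 of the members. With only genes of a mean value of at least 10 kept, 384 of 10049 were called, and the same 3 members. With edgeR's quasi-likelihood test on the recovered reads the same 3 members were called, against 2.43% of all genes. DESeq2, and limma without the trend, called 0 members, with the same directions. The WT and Rxra-KO libraries did not overlap for 8 of 10 members, 5 of them higher and 3 lower, against 38.1% of all genes. The median log2 fold change was 0.16 over the members and 0.02 over all genes. Among the members, the 3 C1q genes had positive fold changes, C3, C4b, Cfb and Cfp had negative ones, and the 3 receptors had positive ones. These groups are not pathways, since C4b belongs to the classical pathway with the C1q genes. Over the 50 complement genes measured, the classical pathway had 5 positive and 4 negative fold changes, and the receptors 5 and 5. C3 and Vsig4 changed sign when 1 library was left out. The plot of values by library shows the directions of the members gene by gene.

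**Figure D1:**
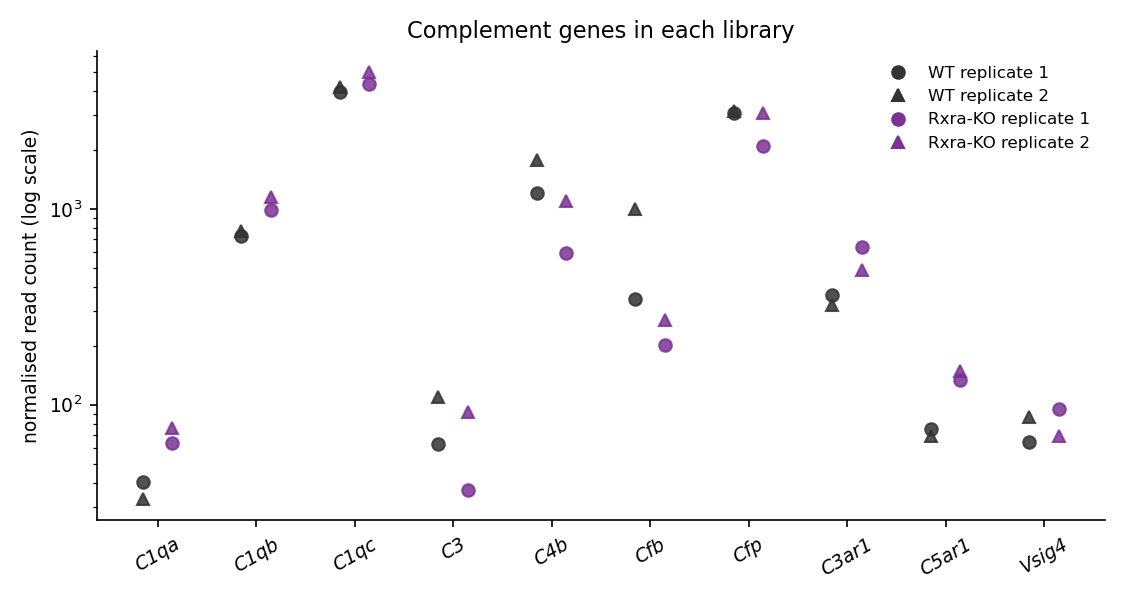
Normalised read count (log scale) of each complement gene in the 4 libraries, with circles for replicate 1 and triangles for replicate 2, WT in black and Rxra-KO in purple. The groups are apart for 8 genes and overlap for C3 and Vsig4, and the WT libraries of Cfb are the widest pair, at 346 and 997.

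Per kilobase of transcript, which allows genes to be compared, C1qc was the most abundant member in WT LPMs at 3377 ± 129 (SD, n = 2), followed by Cfp at 1915 ± 28.1. C1qb followed at 688 ± 25.0, then C4b at 277 ± 75.7 and Cfb at 244 ± 167. The spread of C4b and Cfb covers the gap between them, so their order is not set. C3ar1 stood at 79.5 ± 6.73, above Vsig4 at 52.6 ± 10.8 and C1qa at 35.2 ± 4.78. C5ar1 was at 28.3 ± 1.69 and C3, the central component of the cascade, was the lowest member at 16.8 ± 6.51. Values of Vsig4 and C1qa did not overlap in WT, with 44.9 and 60.2 against 38.6 and 31.8, and those of C5ar1 (29.5 and 27.1) lay below both C1qa values. In Rxra-KO the first 3 places were the same, with C1qc at 3874 ± 387, Cfp at 1586 ± 433 and C1qb at 981 ± 102. C3ar1 at 131 ± 24.1 and C4b at 157 ± 65.7 overlapped there, and Cfb was at 85.5 ± 17.6. Lengths are those of the longest protein-coding transcript in GENCODE M21, which need not be the isoform expressed.

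Among the C1q genes, C1qa had 40.1 and 33.1 normalised reads in WT against 64.0 and 76.0 in Rxra-KO. Both Rxra-KO libraries were above both WT libraries, at 42 and 76 reads against 26 and 30. The log2 fold change was 0.92 (SE 0.35) with a limma adjusted p of 0.207, so the gene was not called, and the 95% interval ran from 0.24 to 1.60. C1qb had 729 and 768 in WT against 988 and 1146 in Rxra-KO. Again the groups did not overlap, and the WT pair was tight. Its log2 fold change was 0.51 (SE 0.22, interval 0.08 to 0.93, limma adjusted p = 0.315). C1qc, the most abundant chain, had 3952 and 4173 in WT against 4331 and 4990 in Rxra-KO. The groups were close but apart, with a log2 fold change of 0.19 (SE 0.22, interval -0.24 to 0.63, limma adjusted p = 0.895). None of the 3 C1q genes was called under any of the 17 alternative settings.

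Taken as 1 quantity, C1qa, C1qb and C1qc held 0.478% and 0.484% of all reads in WT against 0.568% and 0.597% in Rxra-KO. The Wilson 95% intervals were 0.461 to 0.495 and 0.470 to 0.498 in WT, and 0.550 to 0.587 and 0.583 to 0.612 in Rxra-KO. These intervals take each read as independent and leave out the spread between libraries. The libraries carry no molecular identifiers and a molecule can give several reads, so the intervals can be too narrow. The same holds for the binomial intervals below. The mean share was 0.481% ± 0.00431 in WT against 0.583% ± 0.0205 in Rxra-KO (SD, n = 2 each). The difference of 0.102 percentage points gave p = 0.33 in a two-sided exact permutation test, the smallest that 2 against 2 libraries can give.

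The make-up of the C1q reads also differed between the groups, given here as a description with no test. Of all C1q reads, C1qb took 15.4% in both WT libraries and 18.4% in both Rxra-KO libraries. The exact binomial 95% intervals were 14.2 to 16.7 and 14.4 to 16.5 in WT, and 17.1 to 19.7 and 17.5 to 19.4 in Rxra-KO. C1qa took 0.834% and 0.655% in WT against 1.18% and 1.22% in Rxra-KO. Its intervals were wide, reaching up to 1.22 in WT and down to 0.848 in Rxra-KO, so they overlap. C1qc took the remainder, at 83.7% and 83.9% in WT against 80.5% and 80.3% in Rxra-KO. C1qa reads were thus far fewer than those of the other chains in every library. Transcript lengths are 1040, 1088 and 1203 bases for C1qa, C1qb and C1qc, and the C1q protein holds the chains in equal number. The cause of the low C1qa reads was not tested.

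**Figure D2:**
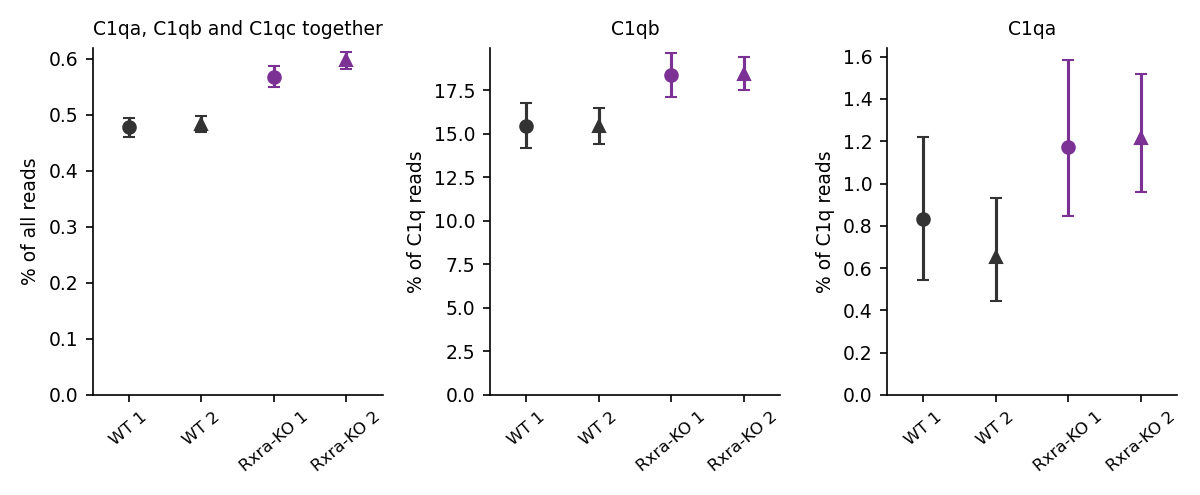
Share of all reads taken by the 3 C1q genes (left, with Wilson 95% intervals) and share of the C1q reads taken by C1qb and by C1qa (middle and right, with exact binomial 95% intervals), in percent, per library. Both Rxra-KO libraries lie above both WT libraries in each panel, and C1qb stands at 15.4% in WT and 18.4% in Rxra-KO.

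The C1q genes are neighbours on chromosome 4, in the order C1qb, C1qc, C1qa. The promoters of C1qb and C1qc are shown because both genes lie in 1 cluster and had higher values in both Rxra-KO libraries. Each sequence is the 250 bases before the start site in RefSeq (GRCm38.p6), read 5′ to 3′ in the direction of transcription, and capitals mark motif matches.
C1qb (chr4:136886201-136886450, minus strand): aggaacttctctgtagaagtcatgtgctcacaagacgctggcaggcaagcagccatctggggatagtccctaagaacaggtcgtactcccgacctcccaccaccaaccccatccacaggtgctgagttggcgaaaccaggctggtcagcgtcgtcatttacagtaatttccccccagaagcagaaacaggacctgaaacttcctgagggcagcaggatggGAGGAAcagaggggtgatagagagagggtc
C1qc (chr4:136892915-136893164, minus strand): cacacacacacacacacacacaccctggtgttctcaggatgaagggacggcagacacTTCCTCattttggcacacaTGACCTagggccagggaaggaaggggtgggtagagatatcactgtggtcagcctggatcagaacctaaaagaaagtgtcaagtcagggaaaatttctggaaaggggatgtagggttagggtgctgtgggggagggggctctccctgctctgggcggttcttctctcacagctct

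Searched on both strands were AGGTCA, the half-site bound by many nuclear receptors, and GAGGAA, a core of PU.1 sites. The other 3 motifs were an IRF-type motif of paired GAAA letters, the C/EBP-type TTGCNNAA and the AP-1-type TGANTCA. Of 32851 promoters of the same length, AGGTCA was present in 14.0%, GAGGAA in 23.3%, the IRF-type motif in 2.98%, TTGCNNAA in 9.56% and TGANTCA in 6.75%. C1qb held GAGGAA at 30 bases before the start. C1qc held GAGGAA on the opposite strand at 193 bases and AGGTCA on the opposite strand at 174 bases. Promoter sequences were at hand for 7 of 10 members (C1qb, C1qc, C3, Cfp, C3ar1, C5ar1 and Vsig4). Of these 7, AGGTCA occurred in 2 (C1qc and C3) and GAGGAA in 3 (C1qb, C1qc and Vsig4). A match of such short letters is a description of the window and not a binding site.

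C4b, which encodes the C4 component cleaved by activated C1, had 1203 and 1779 normalised reads in WT against 592 and 1092 in Rxra-KO. Both Rxra-KO libraries were below both WT libraries, although the higher Rxra-KO library came near the lower WT library. C4b fell by 0.86 on the log2 scale (SE 0.22, 95% interval -1.29 to -0.43, limma adjusted p = 0.0076). Mean values were 1491 ± 407 in WT against 842 ± 353 in Rxra-KO (SD, n = 2 each). Without WT replicate 2 the log2 fold change was -0.58, and without Rxra-KO replicate 1 it was -0.42, with limma adjusted p-values of 0.568 and 0.752, so the call rested on both libraries. It was -1.30 without Rxra-KO replicate 2.

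Reads of C4b can be shared with its near copy C4a, since 48.8% of the 31-base words of the C4b transcript also occur in another gene. C4a was counted with 5 and 4 reads in WT against 3 and 12 in Rxra-KO, so almost all reads of the pair were assigned to C4b, and the split remains uncertain. The stretch below, coding bases 1154 to 1213 of C4b from GENCODE M21 transcripts, is shown because it is a stretch where a read can tell the genes apart. Capitals mark the 11 positions of 60 at which they differ.
C4b: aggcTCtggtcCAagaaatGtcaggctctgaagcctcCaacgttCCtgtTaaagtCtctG
C4a: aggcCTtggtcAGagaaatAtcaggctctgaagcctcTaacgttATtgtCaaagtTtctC

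Cfb, factor B, which provides the protease of the alternative pathway C3 convertase, had 346 and 997 normalised reads in WT against 201 and 270 in Rxra-KO. Both Rxra-KO libraries were below both WT libraries, but WT replicate 2, at 919 reads, stood far above WT replicate 1, at 228 reads. Cfb fell by 1.33 on the log2 scale (SE 0.24, 95% interval -1.80 to -0.86, limma adjusted p = 1.38e-05), the lowest fold change of the 10 members. The size rested on WT replicate 2. Without that library the log2 fold change was -0.57 and the limma adjusted p 0.632, and without WT replicate 1 the fold change was -2.09. A robust trend, in which a gene with a wide spread is not pulled to the trend, did not call Cfb either (adjusted p = 0.61). The same WT replicate 2 stood apart in H2-Ab1, a gene of the MHC class II molecule chosen after its values were seen, with 366 and 2484 in WT against 160 and 610 in Rxra-KO. Rxra-KO replicate 2 was also above Rxra-KO replicate 1 and above WT replicate 1 for H2-Ab1. The main test called H2-Ab1 lower (log2 fold change -1.60, limma adjusted p = 2.40e-06) although the groups overlapped. In the annotation 81.5% of the 31-base words of Cfb also occur in Gm20547, a gene model that overlaps it and was not analysed here. C2, the classical pathway counterpart of factor B and its neighbour on chromosome 17, had 3 and 2 reads in WT against 2 and 7 in Rxra-KO, too few to show a change.

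C3 had 62.8 and 110 normalised reads in WT against 36.9 and 91.9 in Rxra-KO. The groups overlapped, and the lower library of each group was replicate 1. The log2 fold change was -0.51 (SE 0.32, 95% interval -1.14 to 0.13, limma adjusted p = 0.666), and it turned to 0.14 without Rxra-KO replicate 1. Cfp, which encodes properdin, had 3100 and 3165 in WT against 2094 and 3095 in Rxra-KO. Rxra-KO replicate 2 was level with WT, and only Rxra-KO replicate 1 was clearly lower. The log2 fold change of Cfp was -0.30 (SE 0.22, interval -0.73 to 0.13, limma adjusted p = 0.740), and it was -0.02 without Rxra-KO replicate 1.

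In both groups replicate 2 was the deeper library, and its value exceeded that of replicate 1 in both groups for 6 of 10 members (C1qb, C1qc, C3, C4b, Cfb and Cfp), against 26.3% of all genes. All 4 of the components that had negative fold changes are among the 6, and none of the receptors is. The part of depth in these values was not tested.

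**Figure D3:**
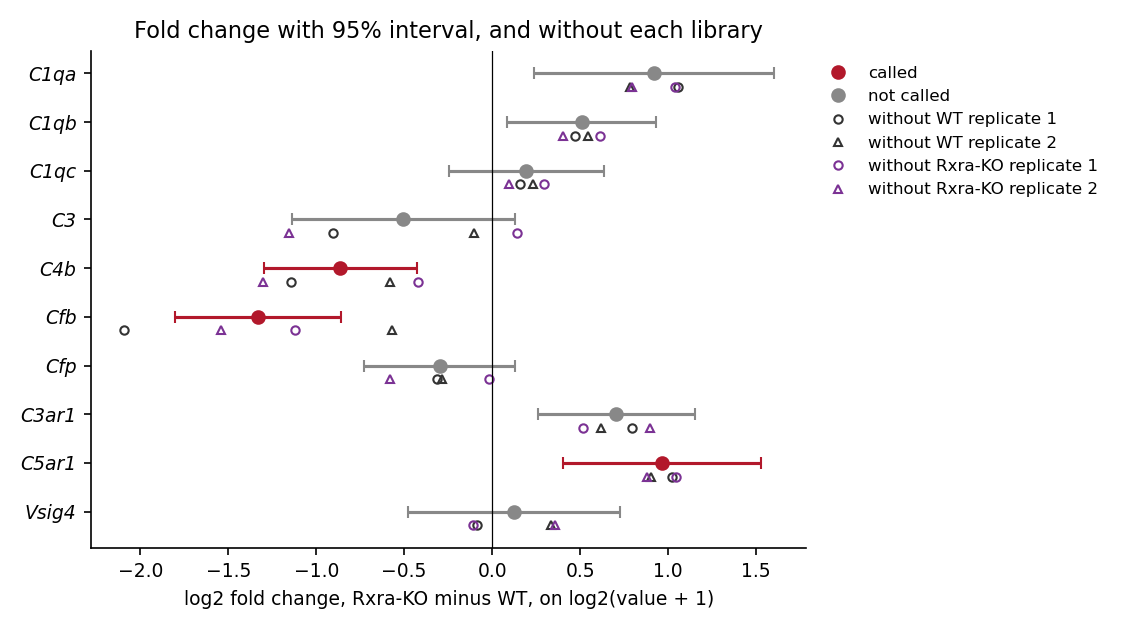
Log2 fold change of each complement gene, Rxra-KO minus WT, on the log2(value + 1) scale, as filled points with 95% intervals from limma (red, called; grey, not called), and below each the fold change when 1 library is left out (open symbols). C5ar1 stays between 0.88 and 1.05, Cfb ranges from -2.09 to -0.57, and C3 and Vsig4 cross 0.

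C5ar1, the receptor of the anaphylatoxin C5a, had 74.9 and 68.9 normalised reads in WT against 133 and 149 in Rxra-KO. Both Rxra-KO libraries were far above both WT libraries relative to the spread within each pair. C5ar1 rose with a log2 fold change of 0.96 (SE 0.28, 95% interval 0.40 to 1.53, limma adjusted p = 0.0388). Reads were 49 and 63 in WT against 88 and 150 in Rxra-KO. The fold change stayed between 0.88 and 1.05 when any 1 library was left out, but the adjusted p was then between 0.120 and 0.368. With edgeR the adjusted p was 0.0368 and with DESeq2 0.214. C5ar2, the second C5a receptor and the neighbour of C5ar1 on chromosome 7, was at 23.7 ± 2.50 in WT against 27.1 ± 7.39 in Rxra-KO (SD, n = 2 each) (log2 fold change 0.16, limma adjusted p = 0.973).

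C3ar1, the C3a receptor, had 363 and 322 in WT against 636 and 489 in Rxra-KO. The groups did not overlap, and both Rxra-KO libraries were higher. The log2 fold change was 0.71 (SE 0.23, 95% interval 0.26 to 1.15) with a limma adjusted p of 0.075, just outside the threshold, where C5ar1 lay just inside. C3ar1 passed the threshold with voom (adjusted p = 0.0423) and with a replicate block in limma (adjusted p = 0.00855). It did not pass with edgeR (adjusted p = 0.0857) or DESeq2 (adjusted p = 0.146). When any 1 library was left out, its fold change stayed between 0.52 and 0.90. The study's own list of genes higher in Rxra-KO LPMs includes C3ar1, at an adjusted p under 0.05 in its limma fit. Whether C3ar1 is called thus depends on the fit. Vsig4 had 64.3 and 86.2 in WT against 95.6 and 69.0 in Rxra-KO. These values overlapped, with a log2 fold change of 0.12 (SE 0.31, interval -0.48 to 0.73, limma adjusted p = 0.968). This interval includes the fold change found for C1qb.

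Promoters of the anaphylatoxin receptors are shown because these genes had the highest fold changes among the receptors, with the same 250-base window, build and motif marks as for the C1q genes.
C3ar1 (chr6:122856158-122856407, minus strand): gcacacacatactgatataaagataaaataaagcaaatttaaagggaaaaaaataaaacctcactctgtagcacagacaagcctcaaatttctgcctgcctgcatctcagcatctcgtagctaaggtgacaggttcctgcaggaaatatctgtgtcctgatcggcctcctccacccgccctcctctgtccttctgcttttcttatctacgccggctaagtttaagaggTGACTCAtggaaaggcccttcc
C5ar1 (chr7:16259339-16259588, minus strand): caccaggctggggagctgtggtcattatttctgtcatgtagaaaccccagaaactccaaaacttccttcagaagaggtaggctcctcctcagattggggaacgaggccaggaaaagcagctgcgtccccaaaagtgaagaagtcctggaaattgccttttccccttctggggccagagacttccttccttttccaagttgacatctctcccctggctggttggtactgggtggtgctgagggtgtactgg

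C3ar1 held TGANTCA at 22 bases before the start, written TGACTCA there, and it was the 1 member of 7 with that motif. None of the 5 motifs was present in the C5ar1 window. The C3 window held TTGCNNAA at 45 bases before the start and AGGTCA at 243 bases. Vsig4 held GAGGAA at 53 and at 155 bases, and Cfp held none of the 5 motifs.

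Of 58 genes listed for the complement system, the 10 members included, 50 were measured, and the 40 others were mostly near the limit of detection. A mean under 10 reads was found for 27 of these 40. Only Itgam, the αM chain of complement receptor 3, was called among the 40, and their median log2 fold change was 0.01. Itgam had 3624 and 4534 in WT against 1406 and 2102 in Rxra-KO. It fell by 1.24 on the log2 scale (SE 0.22, limma adjusted p = 8.60e-06), with both Rxra-KO libraries well below both WT libraries. Itgam is also 1 of the 12 LPM markers given above. Its partner chain Itgb2 had 2319 and 2212 in WT against 1821 and 1541 in Rxra-KO (log2 fold change -0.44, limma adjusted p = 0.472). Vsig4 and Itgam both encode receptors for C3 fragments, at fold changes of 0.12 and -1.24.

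By role, 1 of 9 classical pathway genes was called (C4b), 1 of 3 in the alternative pathway with C3 (Cfb), and 2 of 10 receptors (C5ar1 and Itgam). None of 6 lectin pathway genes, 7 terminal pathway genes, 9 soluble regulators and 6 membrane regulators was called by limma. At an unadjusted p under 0.05 these 4 roles held 1, 2, 2 and 0 genes, against 1854 of all 18364 genes. The classical proteases C1ra, C1s1 and C1s2 and the terminal components were low, and C1ra at 29.8 ± 26.1 in WT was the highest of the 3 proteases. Among genes with a mean value of at least 50, Fcna, ficolin A of the lectin pathway, had 1715 and 1095 in WT against 1380 and 2516 in Rxra-KO, which overlap (log2 fold change 0.44, limma adjusted p = 0.476). The Fcna fold change was 0.01 without Rxra-KO replicate 2 and 0.88 without Rxra-KO replicate 1. Cd93, once described as a C1q receptor, was at 731 and 942 in WT against 611 and 529 in Rxra-KO (log2 fold change -0.55, limma adjusted p = 0.265). Cr1l (-0.28) and Cr2 (-0.07), which bind C3 fragments, were not called, and Cr2 changed sign without WT replicate 2 (0.10) and without Rxra-KO replicate 2 (0.12).

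**Figure D4:**
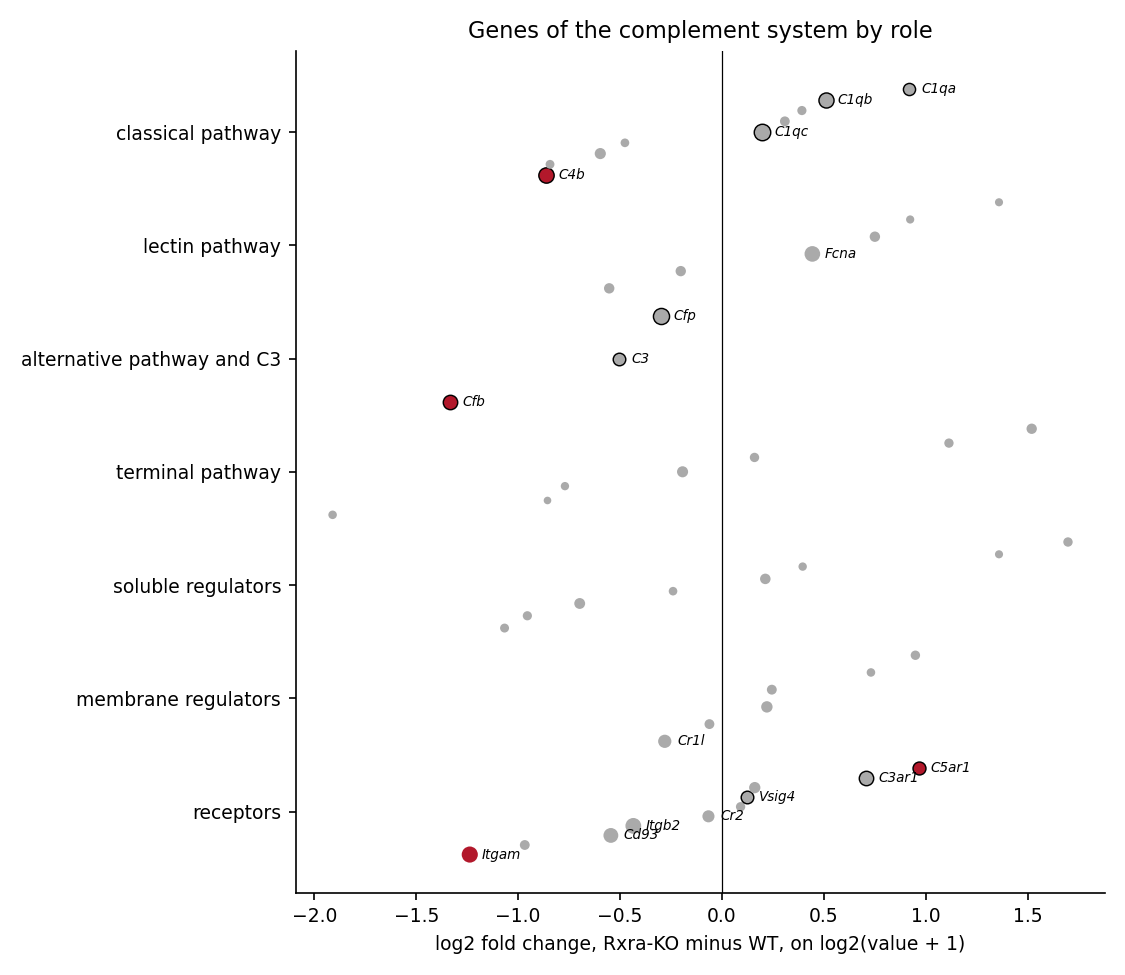
Log2 fold change, Rxra-KO minus WT, on the log2(value + 1) scale, of the reported genes of the complement system in 7 roles; point area grows with the log of the mean value, red marks called genes, a black outline marks the 10 members, and genes that were called or had a mean of at least 50 are named. The called genes are C4b, Cfb and Itgam on the left and C5ar1 on the right, and the widest fold changes of unnamed genes belong to small points with few reads.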

How the data were processed

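RNA of sorted LPMs was measured in 2 WT and 2 Rxra-KO libraries. Per the study's methods and the submitters' processing notes, the authors quantified transcripts with kallisto 0.43.0 (reference named GRCh38, although the libraries are mouse), summarised them to genes, kept genes with 1 CPM or more in 2 replicates and scaled by TMM. The deposited signal of each gene equals (reads + 0.5) over a scaled library size, and 100% of the values gave whole reads within 0.01 read. The unit was therefore not raw counts, and limma 3.58.1 (R 4.3.3) with a mean-variance trend was used on log2(value + 1), which understates changes of low genes, two-sided, Benjamini-Hochberg adjusted over 18364 genes. The filter, a value of 1 or more in 2 libraries, left all genes in. At most 3 reads were taken as the floor. The edgeR (4.0.16), voom and DESeq2 (1.42.0) tests on recovered reads, other pseudocounts, filters, scalings and thresholds, and leaving out each library were alternatives.

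Named were all 10 members, other complement genes that were called or had a mean value of at least 50, and checks of labels and cell types. A complement gene that met this rule is not reported here. Members and lists were chosen with earlier results of these data known. C1ra, C1s1, C1s2, C2, C4a, C5ar2 and H2-Ab1 were named outside that rule, after their values were seen. Which reference gave the reads was not settled, so coordinates are given only for RefSeq promoters. The study excluded samples that did not cluster with their condition, and these were not analysed here. The fit was tested on simulated data.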

Additional observations from a re-analysis of the deposited data

How the results depend on the processing

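With 2 libraries a group, the spread of a gene is mostly borrowed from other genes: limma's prior had 226.6 degrees of freedom against 2 from the libraries. Without the trend 0 genes were called by limma (1579 at an unadjusted p under 0.05), and 0 members and 0 complement genes. DESeq2 called 235 genes, 0 members and 1 complement gene (Itgam), with 727 genes at an unadjusted p under 0.05, and 191, 0 and 1 without independent filtering, a setting chosen after seeing the data. A robust trend left 1 member (C4b) and 2 complement genes, and a log2 fold change of at least 1 left 1 member (Cfb) and 2 complement genes. Other pseudocounts, scalings and filters, and edgeR, called the same 3 members. Leaving out 1 library gave 236 to 377 genes, 0 to 3 members and 1 to 4 complement genes; the 0 members came without WT replicate 2, and 236 and 244 genes without WT replicate 2 and without Rxra-KO replicate 1. The C1q share difference then ranged from 0.0875 to 0.117. Leaving out 1 library, log2 fold changes ranged from -1.15 to 0.14 for C3, from -0.11 to 0.36 for Vsig4 and from -0.26 to 0.12 for Cr2, each with a change of sign. Same-numbered libraries deviated together with a correlation of 0.063 over 10049 genes, which cannot exclude a pairing that moves only some genes. The labels name no pairing, so the numbers were taken as names in the main fit. A replicate block in limma called 540 genes, 4 members (C3ar1 added, adjusted p = 0.00855) and 5 complement genes. The cause of these shifts was not tested.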
